A study of Mus musculus with 6 samples.

Results

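The genes for glutathione metabolism, peroxiredoxins and related antioxidant enzymes were followed in mouse marrow stem cells after an siRNA against Dia2. Members were the rows of the deposited gene table whose symbol matched a fixed pattern: the glutathione transferases (Gsta, Gstk, Gstm, Gsto, Gstp, Gstt, Gstz and Mgst genes), the glutathione peroxidases (Gpx), the peroxiredoxins (Prdx), every symbol that starts with Txn, and Sod1 to Sod3, Nqo1, Nqo2, Hmox1, Hmox2, Gclc, Gclm, Cat, Gsr, Gss and Srxn1. The pattern found 73 of 23358 rows and used no measured value. The cells were bone marrow-derived mesenchymal stem cells of C57BL/6 mice at passage 6 to 12, and RNA was sequenced from 6 libraries, 3 of cells given a non-targeting control siRNA and 3 of cells given the siRNA against Dia2 at 50 nM. Dia2 is a formin, an actin-assembling protein, and its gene is Diaph3. Cells of both groups took up the siRNA overnight with a lipofection reagent and were collected 24 h after a change of medium. The labels do not state separate cultures for the libraries of a group. The p-values therefore measure the library-to-library spread alone, and that spread may be technical.

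Cells meet superoxide and hydrogen peroxide from mitochondria, from membrane oxidases and from protein folding in the endoplasmic reticulum. Superoxide dismutases turn superoxide into hydrogen peroxide, which catalase, glutathione peroxidases and peroxiredoxins remove, and the last 2 families draw electrons from glutathione or thioredoxin, both of which are kept reduced at the cost of NADPH. Many of these genes are targets of the transcription factor NRF2, which binds antioxidant response elements together with small Maf proteins and is held in check by KEAP1.

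Total counts ranged from 70538768 to 110006338 per library, and every count in the table was even. Levels within a gene are given as CPM, counts per 1000000 scaled by TMM library factors, and levels between genes only as deposited RPKM, which divides by transcript length. Diaph3 fell from 83.2 ± 2.7 to 7.76 ± 0.532 CPM (SD, n = 3 each). Markers of mesenchymal stem cells were present and all 11 tested of 12 listed were higher with Dia2 siRNA, beside 29.3% of all genes tested. Their summed levels were 3294 to 3671 CPM in the control and 5751 to 5804 CPM in the Dia2 libraries, while Thy1 was near 0. Of 9 blood and macrophage markers 6 were tested and 4 were lower, beside 29.9% of all genes tested. The sum of the 9 was 20.8 to 22.8 CPM against 12.9 to 14.3 CPM, with the defining marker Ptprc at or below 0.0855 CPM. Of 6 endothelial markers 3 were tested and 1, Kdr, was lower, from 1.15 ± 0.121 to 0.646 ± 0.143 CPM. Among 9 red cell markers, the 5 globin genes had no count in any library and the 2 tested genes did not pass. The part of such cells in the results below was not tested, and in bulk RNA fewer cells of a type and less RNA per cell cannot be told apart.

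Of the 73 members 62 passed the filter on low counts and were tested. The other 11 were scarce: Gsta1, Gsta2, Gpx2 and Txndc8 had no count at all, and Gstm3, Gstm6, Gpx2-ps1, Gpx5, Gpx6, Txndc3 and Txndc6 had at most 30 counts in any library. Of the tested members 20 were higher with Dia2 siRNA, 22 were lower and 20 did not pass an adjusted p of 0.05 in edgeR's quasi-likelihood test. The members thus moved both ways. Among all 14151 genes tested 59.2% passed, 29.3% higher and 29.9% lower, against 32.3% and 35.5% of the members, so the shares lie near the background. Most members are abundant. At a mean of at least 10 CPM 36 of 45 members passed (80%), beside 68.7% of 8842 genes, and the difference was not tested. The counts by role given below stand against the same 29.3% and 29.9%. The groups did not overlap for 21 members above and 23 below the controls, and for 64.6% of all genes tested. The member median log2 fold change was -0.04, beside 0.01 for all genes. The median absolute log2 fold change among those that passed was 0.407, beside 0.435 for all genes that passed. Of the 62 tested members 7 reached 2-fold, of which Gstt4 and Txndc2 were close to the counting floor, and of all 14151 genes 1214 did.

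**Figure D1:**
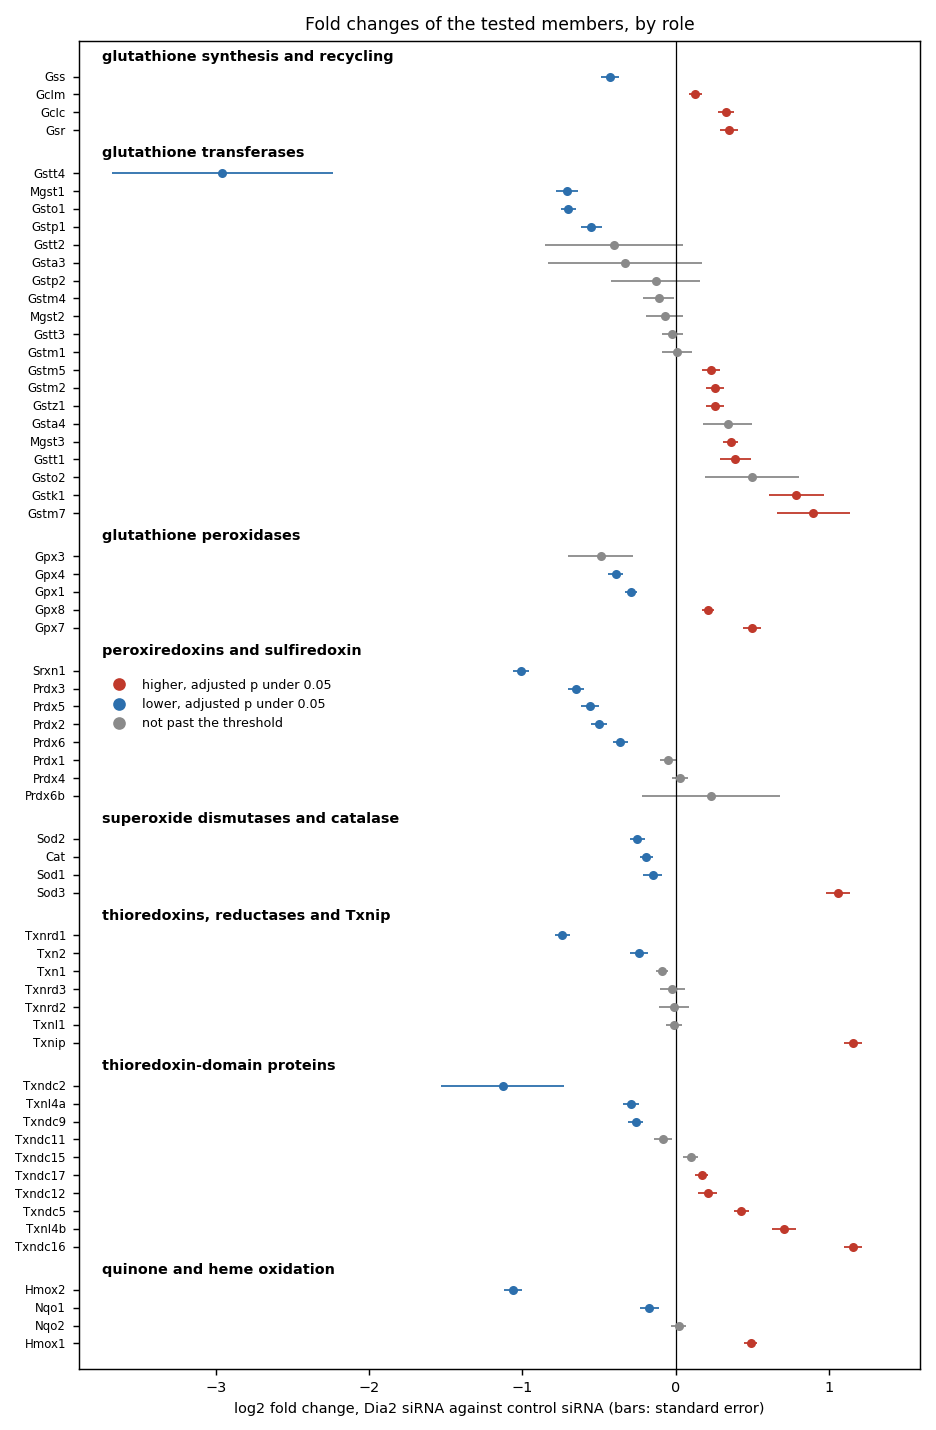
The x axis gives the log2 fold change of each of the 62 tested members with Dia2 against control siRNA, the bars its standard error, and genes are grouped by role. Sulfiredoxin (Srxn1, -1.01) and the peroxiredoxins that passed, from Prdx3 at -0.65 to Prdx6 at -0.36, all lie to the left. Txnip and Txndc16 (1.16) and Sod3 (1.06) lie farthest to the right.

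Per length, peroxiredoxins, glutathione peroxidases, thioredoxin and Sod1 led the members in control cells. Prdx5 stood highest at 368 ± 45.9 RPKM (SD, n = 3), followed by Gpx4 at 262 ± 19 RPKM, Prdx1 at 259.7 ± 3.18 RPKM and Txn1 at 254 ± 17.3 RPKM. The control ranges of the last 3 overlap, so their order is not resolved, and the lowest Prdx5 value, 315 RPKM, lay above all of theirs. Prdx2, Sod1 and Gpx1 came next with overlapping ranges around means of 209, 199 and 193 RPKM. Mgst1 at 161 ± 9.54 RPKM was the most abundant transferase.

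**Figure D2:**
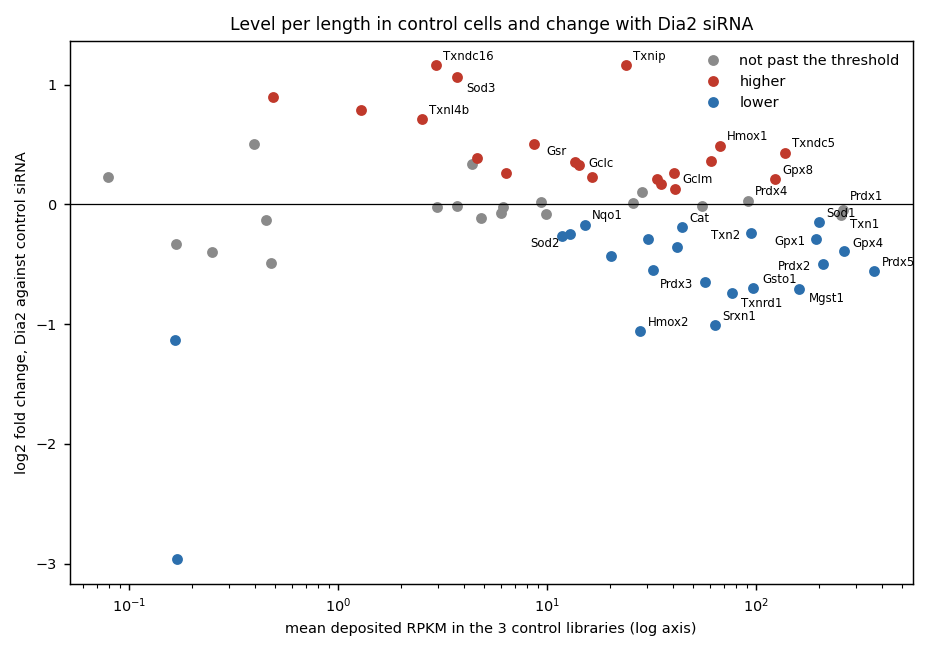
The x axis is the mean deposited RPKM of a tested member in the 3 control libraries, on a log scale, and the y axis its log2 fold change with Dia2 siRNA. The 8 members of highest level all lie below the zero line, from Prdx1 at -0.05 to Mgst1 at -0.71. Of these Prdx1 and Txn1 did not pass, and the groups overlapped for Sod1. No such share was counted for other abundant genes. The next 2 members, Txndc5 and Gpx8, lie above the line.

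Glutathione synthesis and recycling changed in all 4 genes, with 3 higher and 1 lower. Gclc encodes the catalytic subunit of glutamate-cysteine ligase, the rate-limiting enzyme of glutathione synthesis, and its level was 56.2, 55.9 and 58.8 CPM in control replicates 1, 2 and 3 and 72.5, 73.1 and 68.6 CPM in the Dia2 replicates. All 3 Dia2 libraries lay above the controls (log2 fold change 0.33 ± 0.05 SE, adjusted p = 8.99e-05). Gclm, the modifier subunit of the same enzyme, rose less, from 70.6 ± 1.18 to 77.2 ± 0.596 CPM (0.13 ± 0.04, adjusted p = 0.0201), and its call was lost without control replicate 2 (adjusted p = 0.0763) or without any 1 Dia2 replicate (0.073 to 0.0853). Gss, glutathione synthetase, which completes the tripeptide, fell from 44 ± 2.78 to 32.7 ± 1.21 CPM (-0.43 ± 0.06, adjusted p = 8.98e-05). The genes of the first and the last step of synthesis moved in opposite directions. Gsr, glutathione reductase, which regenerates reduced glutathione, stood at 45.1, 42.2 and 40.9 CPM in the controls and 57.9, 53.8 and 52 CPM with Dia2 siRNA, without overlap (0.35 ± 0.06, adjusted p = 0.000246).

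Of 24 glutathione transferases, which attach glutathione to reactive compounds, 20 were tested, 7 were higher and 4 lower. The abundant Mgst1, a membrane-bound transferase with peroxidase activity (chromosome 6, 138140537 to 138156752), had 165, 171 and 199 CPM in the controls and 111, 112 and 104 CPM in the Dia2 libraries. The groups did not overlap, although control replicate 3 stood above the other 2 (log2 fold change -0.71 ± 0.07, adjusted p = 1.98e-06). Gsto1, an omega-class enzyme that reduces dehydroascorbate and mixed disulfides (chromosome 19, 47854989 to 47864788), fell from 138, 132 and 126 CPM to 79.2, 83.7 and 81.7 CPM (-0.70 ± 0.05, adjusted p = 1.81e-07). Its neighbour Gsto2 was scarce at 0.651 ± 0.294 and 0.92 ± 0.115 CPM and did not pass.

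Among the other transferases, Gstp1 of the pi class fell 1.47-fold to 19.2 ± 1.99 CPM, but 33.7% of the 50-base words of its transcripts also occur in another gene, most often the adjacent Gstp2, so counts may be shared between them. Of the mu class Gstm2 (0.26) and Gstm5 (0.23) rose slightly and Gstm7, near 1 CPM, rose at 0.90 ± 0.24, while Gstm1 (38.8 ± 6.43 and 39.2 ± 2.69 CPM) and Gstm4 did not pass. These genes lie side by side on chromosome 3 and are similar in sequence, with 18.9% of the words of Gstm1 shared. Mgst3 rose 1.28-fold from 45.3 ± 0.526 to 58 ± 0.736 CPM. Gstt1, Gstz1 and Gstk1 rose at log2 fold changes of 0.39, 0.26 and 0.79. The span of Gstz1 overlaps by 738 bases that of Pomt2, at 32.7 CPM in the controls and 40.9 CPM with Dia2 siRNA. That of Gstm5 overlaps by 360 bases that of 4933431E20Rik, at 3.387 and 5.745 CPM. Counts in these overlaps cannot be told apart without a stated strand. Gstt4 was lower but nearly silent, with 14, 18 and 16 counts in the controls and 2, 0 and 4 with Dia2 siRNA. Only its control libraries reached the cutoff of the low-count filter, so it was tested through the group where it is high. Gstt4 stays in the counts of lower genes, but its direction is not read as a result.

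Of 9 glutathione peroxidase rows 5 were tested, with 2 lower and 2 higher. The family holds enzymes that carry selenocysteine, an amino acid inserted at a UGA codon that otherwise stops translation, and enzymes without it. In GENCODE M21 (GRCm38) 7 members have an annotated selenocysteine codon, 4 Gpx and 3 Txnrd genes. They are shown because they mark which members depend on selenium, with the codon in capitals, in the coding strand up to 12 bases on either side or the end of the coding sequence.
Gpx1: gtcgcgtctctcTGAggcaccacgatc
Gpx2: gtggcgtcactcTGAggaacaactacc
Gpx3: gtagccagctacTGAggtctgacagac
Gpx4: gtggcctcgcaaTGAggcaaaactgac
Txnrd1: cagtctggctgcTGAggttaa
Txnrd2: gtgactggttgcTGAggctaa
Txnrd3: cagaaaggctgcTGAggctag
In Gpx1 the codon lies in exon 1 of 2 (chromosome 9, 108339451 to 108339453, plus strand) and is residue 47 of 201, and in the Gpx4 transcript shown it lies in exon 3 of 7 (chromosome 10, 80054737 to 80054739, plus strand) at residue 73 of 197. In the thioredoxin reductases it is the next-to-last residue, 498 of 499 in Txnrd1 (chromosome 10, 82896037 to 82896039, plus strand), 526 of 527 in Txnrd2 and 614 of 615 in Txnrd3.

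Of the 3 tested selenocysteine peroxidases Gpx1 and Gpx4 were lower and Gpx3 did not pass. Gpx4, which reduces lipid hydroperoxides in membranes, had 377, 373 and 355 CPM in the controls and 276, 277 and 290.4 CPM in the Dia2 libraries. No control value fell within the Dia2 range (log2 fold change -0.39 ± 0.05, adjusted p = 1.71e-05). Of the words of its transcripts 34.7% occur in other genes, mostly Gpx4-ps2. Gpx1, the main cytosolic peroxidase, fell from 239, 243 and 228 CPM to 192, 192 and 196 CPM (-0.29 ± 0.04, adjusted p = 0.000109). Gpx3, the secreted plasma form, was scarce at 0.852 ± 0.0886 and 0.606 ± 0.0305 CPM and did not pass (adjusted p = 0.0671). The 2 tested peroxidases without annotated selenocysteine, Gpx7 and Gpx8, both of the endoplasmic reticulum, rose. Gpx7 went from 11.7, 13 and 12.4 CPM to 16.8, 17.3 and 18.1 CPM (0.50 ± 0.06, adjusted p = 2.9e-05) and Gpx8 from 147 ± 4.29 to 170.1 ± 3.95 CPM (0.21 ± 0.04, adjusted p = 0.00126).

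Peroxiredoxins reduce peroxides with a reactive cysteine, and sulfiredoxin (Srxn1) repairs that cysteine when it is overoxidised. Of these 8 genes 5 were lower, none was higher and 3 did not pass, beside 29.9% lower and 29.3% higher among all genes tested. Srxn1 (chromosome 2, 152105730 to 152111353) changed most, with 199, 198 and 176 CPM in the controls and 95.7, 93.8 and 95.2 CPM in the Dia2 libraries. The Dia2 libraries were tightly grouped and all below the controls, 2.02-fold lower on average (log2 fold change -1.01 ± 0.05, adjusted p = 1.9e-08). Prdx3, the mitochondrial peroxiredoxin (chromosome 19, 60864066 to 60874538), fell from 99.3, 93.9 and 95.7 CPM to 63.3, 60.6 and 60.4 CPM (-0.65 ± 0.05, adjusted p = 2e-07). Prdx5, found in mitochondria, peroxisomes and cytosol, fell from 309.7, 311 and 267 CPM to 198, 198 and 205 CPM (-0.56 ± 0.06, adjusted p = 5.95e-06). Even the lowest control, replicate 3, lay above every Dia2 library. The cytosolic Prdx2 fell 1.42-fold and Prdx6, which has a single reactive cysteine, 1.28-fold.

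Prdx1, a cytosolic peroxiredoxin, did not pass. It had 420, 426 and 450 CPM in the controls and 427, 416 and 410.4 CPM with Dia2 siRNA, with overlapping groups (-0.05 ± 0.05, adjusted p = 0.398). Prdx4, the form of the endoplasmic reticulum, stood at 104 ± 4.13 and 107 ± 2.07 CPM (0.03 ± 0.05, adjusted p = 0.558), and Prdx6b was under 0.5 CPM in each library.

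Among the dismutases and catalase the extracellular enzyme rose and the 3 intracellular ones fell by little. Sod3, which is secreted and binds the matrix (chromosome 5, 52363804 to 52369738), had 8.71, 9.74 and 8.1 CPM in the controls and 17.8, 18.3 and 19.3 CPM in the Dia2 libraries. Each Dia2 value was well above every control (log2 fold change 1.06 ± 0.08, adjusted p = 2.18e-07). Sod2, the mitochondrial enzyme, fell from 59.6, 54.8 and 59.2 CPM to 48.9, 48.5 and 48.5 CPM (-0.25 ± 0.05, adjusted p = 0.000945), with 21% of its transcript words shared with other genes. Cat, the peroxisomal catalase, fell from 131, 130.4 and 135 CPM to 114, 118 and 114 CPM (-0.19 ± 0.04, adjusted p = 0.00151). Sod1, the cytosolic enzyme, had 154, 159 and 139 CPM against 130.4, 139.9 and 138 CPM, and the groups overlapped (-0.15 ± 0.06, adjusted p = 0.0364). The Sod1 call was lost without control replicate 1 or 2 or any Dia2 replicate (adjusted p = 0.062 to 0.154).

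In the thioredoxin system the reductase fell and the inhibitor rose while thioredoxin itself moved little. Txnrd1, the cytosolic thioredoxin reductase (chromosome 10, 82833951 to 82897724), had 384, 349 and 352 CPM in the controls and 219, 214 and 215 CPM in the Dia2 libraries. The lowest control was far above the highest Dia2 library (log2 fold change -0.74 ± 0.05, adjusted p = 1.2e-07). Txnip, which binds and inhibits thioredoxin and limits glucose uptake (chromosome 3, 96557957 to 96561857), had 71.4, 82.9 and 79.8 CPM against 168, 177 and 178 CPM. The groups were fully apart (1.16 ± 0.06, adjusted p = 1.39e-08). Txn1, the cytosolic thioredoxin, stood at 313 ± 9.49 CPM in the controls and 295 ± 4.53 CPM with Dia2 siRNA and did not pass, although the groups did not overlap (-0.09 ± 0.04, adjusted p = 0.112), but passed without control replicate 3 (-0.11, adjusted p = 0.00785). Of the mitochondrial pair, Txn2 fell 1.18-fold from 142 ± 12.9 to 120.4 ± 3.43 CPM, and Txnrd2 did not pass at 8.24 ± 0.906 and 8.17 ± 0.893 CPM. Txnrd3 and Txnl1 did not pass either (-0.02 and -0.01).

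**Figure D3:**
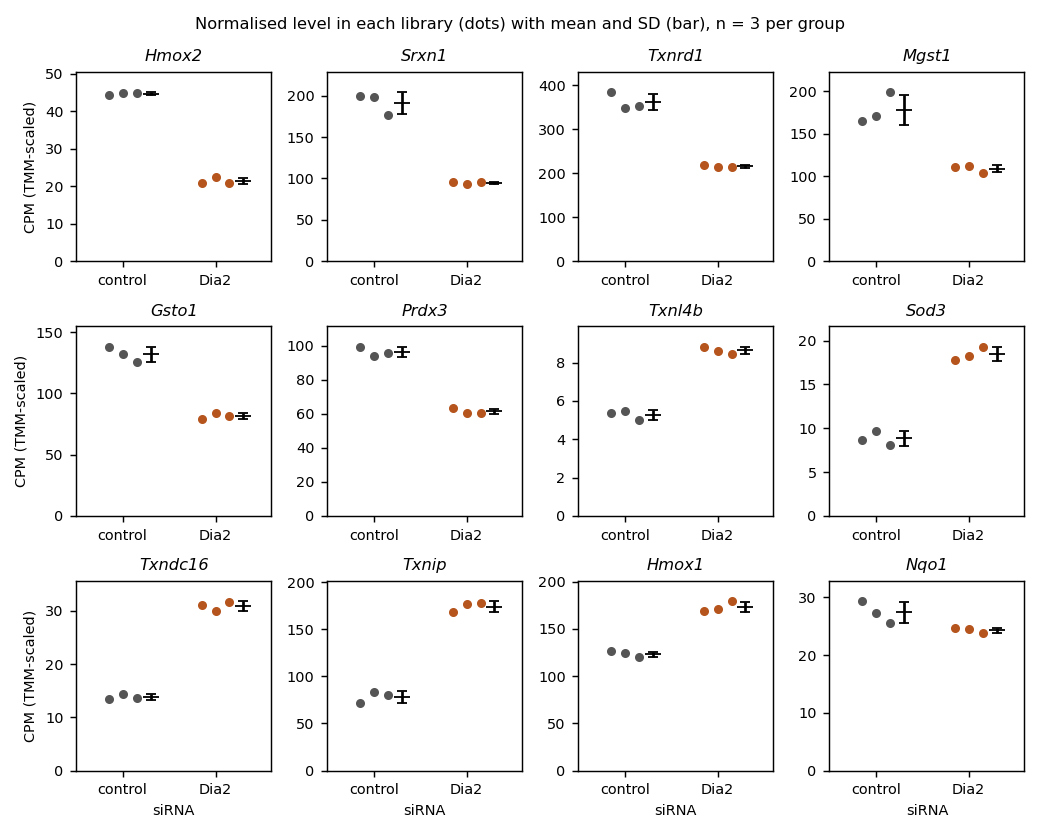
Each panel plots the CPM of a member in the 3 control and 3 Dia2 siRNA libraries (dots), with the group mean and SD as a bar beside them, and each y axis starts at 0. In all 12 panels the dots of the 2 groups do not overlap. Every panel but Hmox1 and Nqo1 shows a member named by a rule that asks for no overlap. Their separation thus follows from the choice of panels. Members with overlapping groups, such as Prdx1 and Sod1, are not plotted, and 64.6% of all genes tested did not overlap. For Nqo1 the gap is narrow, between 25.6 CPM for the lowest control and 24.6 CPM for the highest Dia2 library.

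Of 13 other genes with a thioredoxin-domain name 10 were tested, 5 higher and 3 lower. Several of these proteins are not antioxidants: those of the endoplasmic reticulum take part in disulfide formation and folding, and Txnl4a and Txnl4b encode proteins of the spliceosome. Txndc16, a luminal endoplasmic reticulum protein (chromosome 14, 45134448 to 45219394), rose from 13.4, 14.4 and 13.6 CPM to 31, 29.9 and 31.7 CPM, without overlap (1.16 ± 0.06, adjusted p = 1.89e-08). Txndc5, a protein disulfide isomerase and one of the more abundant members, rose 1.35-fold from 420.1 ± 21.2 to 565 ± 4.14 CPM. Txndc12 and Txndc17 rose by less (0.21 and 0.17), and Txndc11 and Txndc15 did not pass. The Txndc12 call was lost without control replicate 1 or 2 or Dia2 replicate 1 (adjusted p = 0.0564 to 0.0624), and its span overlaps Kti12, whose counts cannot be told apart without a stated strand. Txnl4b rose from 5.38, 5.45 and 4.99 CPM to 8.82, 8.62 and 8.44 CPM (0.71 ± 0.08, adjusted p = 9.88e-06), whereas Txnl4a fell (-0.29) and Txndc9 fell (-0.26). Txndc2, a sperm thioredoxin, had 44, 32 and 24 counts against 6, 16 and 24. Leaving out control replicate 1 or 2, or Dia2 replicate 1 or 2, ended the Txndc2 call (adjusted p = 0.0702 to 0.102).

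The heme oxygenase genes Hmox1 and Hmox2 moved in opposite directions, and the quinone genes Nqo1 and Nqo2 changed little. Hmox1, the inducible heme oxygenase (chromosome 8, 75093618 to 75100593), rose from 126, 124 and 120.5 CPM to 169, 171 and 179 CPM, without overlap (log2 fold change 0.49 ± 0.04, adjusted p = 1.56e-06). Hmox2, the constitutive form (chromosome 16, 4726361 to 4766249), fell from 44.3, 44.9 and 44.9 CPM to 20.8, 22.5 and 21 CPM (-1.06 ± 0.06, adjusted p = 2.5e-08). Its span overlaps that of 5730403B10Rik by 789 bases, and that gene was at 41.3 and 31 CPM. Nqo1, the NAD(P)H quinone reductase often used as a readout of NRF2, had 29.3, 27.2 and 25.6 CPM against 24.6, 24.5 and 23.8 CPM (-0.17 ± 0.06, adjusted p = 0.0328). The Nqo1 call was lost without control replicate 1 or 2 or any Dia2 replicate (adjusted p = 0.0539 to 0.11). Nqo2 did not pass (0.02 ± 0.05), and the span of the more abundant Serpinb6a, at 345 and 407 CPM, overlaps it by 23807 bases.

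Because many members are known NRF2 targets, their promoters were searched for the core of the antioxidant response element, TGACNNNGC, on both strands of the 300 bases from 250 before to 50 after each RefSeq start (GRCm38.p6). The core was found for 13 of 62 members with a promoter sequence (21% of genes), against 14% of 27025 genes, and for 23.1% of the 52 tested members against 16.8% of tested genes. A gene can have several promoters, and counted per promoter the gap was smaller. The core was then in 15.7% of 83 member promoters against 12.4% of 32851, and in 16.9% against 14.1% for tested genes. These shares are descriptions and no test was made. The sites of members described above, 11 in all, are shown on the strand of the gene, 8 bases on either side, with the match in capitals.
Prdx1: gggaaagcGCTGAGTCAtcccccgt
Gclm: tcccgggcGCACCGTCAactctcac
Txnrd1: ggatttttGCTTTGTCAttctgaca
Srxn1: agtgggcaGCTAGGTCAgagtgaga
Mgst1: ggggcttgGCACGGTCAggaggcgg
Sod1: caaggtggGCGTGGTCAgactcagg
Gstm5: ccgcccacTGACCACGCggagggcg
Gstm7: tgaagaccTGACAAAGCgaagccaa
Txndc5: ctcgccgcTGACGTGGCgctagccg
Txndc2: ttgaacctTGACCTAGCctagctgt
Txndc11: tggaaggcTGACGCGGCcgcgagtg
The Prdx1 match lies 133 bases before the start (chromosome 4, 116685466 to 116685474) and that of Gclm 134 before (chromosome 3, 122245423 to 122245431). The Txnrd1 match lies 92 before (chromosome 10, 82859114 to 82859122), and that of Srxn1 28 bases after (chromosome 2, 152105552 to 152105560). For Txnrd1 and Srxn1 the RefSeq start used differs from the start of the span given above. The Txnrd1 match lies inside that span, and the Srxn1 match before the first base of its span, 152105730. The tested members with a match moved both ways: Srxn1, Txnrd1, Mgst1, Sod1 and Txndc2 were lower, Gclm, Gstm5, Gstm7 and Txndc5 higher, and Prdx1, Txndc11 and Gsta3 did not pass. The match of the untested Txndc6 is not shown. In the Nqo1 window these letters were not found.

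Other genes of the same pathways were read from 8 lists of 131 genes in all, of which 121 were tested, 33 higher and 54 lower, with a median log2 fold change of -0.15 beside 0.01 for all genes. Against these and the counts of each list stand 29.3% higher and 29.9% lower among all genes tested. Of 12 tested genes of NRF2 control 7 were lower and 2 higher, with a median of -0.29. Nfe2l2, which encodes NRF2, fell from 121 ± 1.23 CPM to 88.2 ± 1.25 CPM (-0.46), Bach1, a repressor that competes for the same sites, fell at -0.93, the small Maf gene Mafg at -0.64 and the KEAP1-binding adaptor gene Sqstm1 at -0.59. Cul3, the ligase scaffold that works with KEAP1, rose at 0.52. Of the same list Nfe2l1 rose from 252 ± 10.3 to 349 ± 6.47 CPM (0.47), and Keap1 itself fell at -0.25. Of 17 other NRF2 targets 7 were higher and 5 lower, and the median was 0.08. Esd, which hydrolyses S-formylglutathione, fell at -1.12, while Aldh3a1, an aldehyde dehydrogenase (1.17), Ugt1a6a, a glucuronosyltransferase (0.78), and Slc7a11, the cystine transporter (0.78), rose.

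In the list of NADPH supply and the pentose phosphate pathway 8 of 17 were lower and 3 higher, with a median of -0.08. The pentose phosphate genes Taldo1, G6pdx and Tkt fell at -1.36, -0.87 and -0.85, of which Taldo1 and Tkt belong to the branch that makes no NADPH, and Aldh1l2, a mitochondrial folate enzyme, rose at 1.09. G6pdx, the entry enzyme of the oxidative branch, stood at 303 ± 19.1 CPM in the controls and 166 ± 2.26 CPM with Dia2 siRNA. Of 16 genes of glutathione precursors and turnover 5 were higher and 6 lower, with a median of -0.16. Anpep, an aminopeptidase (2.00), Chac1, which degrades glutathione (1.22), and Slc7a11 rose, and Lap3, a further aminopeptidase, fell at -0.62. Of 14 glutaredoxins, methionine sulfoxide reductases, sestrins and related genes 7 were lower and 3 higher, with a median of -0.20. Park7, a sensor of oxidative stress, fell at -0.97 and Sesn1 and Oxr1 rose at 0.72 and 0.55. All 4 glutaredoxins, which reduce mixed disulfides with glutathione or carry iron-sulfur clusters, were lower, Glrx3 at -0.50, Glrx2 at -0.48, Glrx5 at -0.42 and Glrx at -0.39. Nfe2l2, Nfe2l1, Keap1, Glrx, Glrx2 and Glrx5 were named after their values had been seen.

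Of 12 tested oxidant sources 6 were higher and 2 lower, with a median of 0.36. Cybb, an NADPH oxidase subunit of phagocytes, rose at 1.32 from under 1 CPM, and Maob, a monoamine oxidase, at 0.67, with Ero1a, the thiol oxidase of the endoplasmic reticulum, at 0.55, while Cyba, the p22phox subunit that blood cells also express, fell at -0.68 beside the lower blood markers given above, whose part in this was not tested. In the heme and iron list 11 of 16 were lower and 3 higher, with a median of -0.34. Alas1, the first enzyme of heme synthesis, fell at -0.93, the heme exporter gene Flvcr1 at -0.67 and Alad at -0.54, and the iron exporter gene Slc40a1 rose at 1.63 from 5.22 ± 0.792 CPM to 16 ± 1.32 CPM. Of 21 genes of selenium use and other selenoproteins 6 were higher and 8 lower, with a median of 0.02. Dio3, the deiodinase (3.44), Selenof (1.39) and Selenon (0.60), 2 proteins of the endoplasmic reticulum, rose, and Sephs2, which makes the selenium donor, fell at -0.48.

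**Figure D4:**
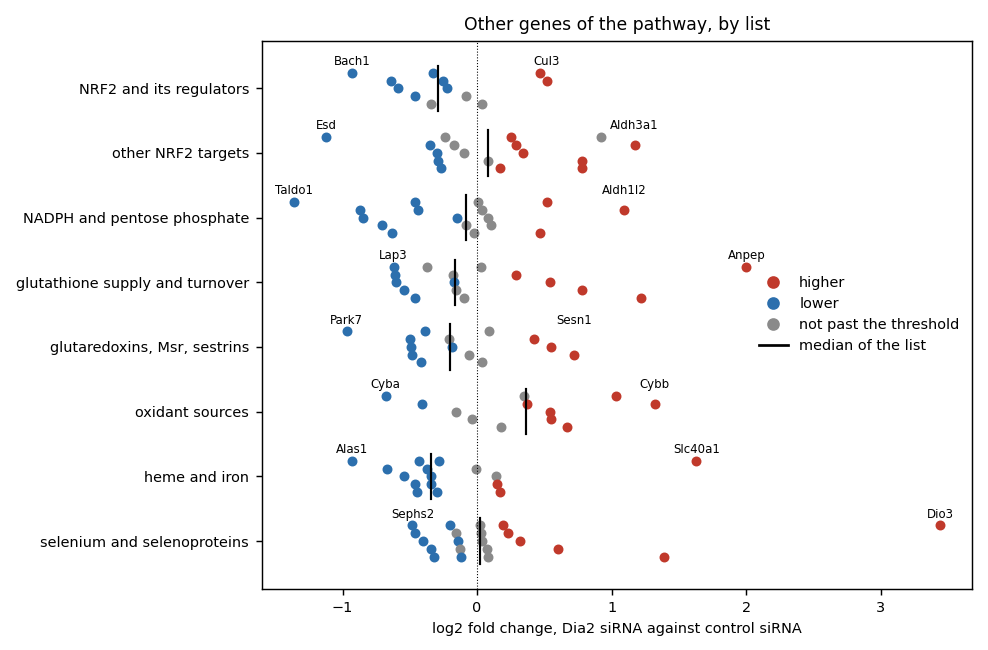
The x axis is the log2 fold change of each tested gene with Dia2 against control siRNA, the y axis the 8 lists, and a black line marks each list's median. The heme and iron list has the lowest median (-0.34) and the oxidant sources the highest (0.36).

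Words of 7 bases that had been picked in earlier work on these data were counted in the 3′ UTRs, and here they only describe the members. TATGTGA, or the word that starts 1 base later in it and ends in AA, was held by 11 of 62 tested members with an annotated 3′ UTR (17.7%), against 27.3% of 13007 tested genes. GCAGTAC was held by 7 (11.3%), against 7.83%. The member median log2 fold change was -0.05 with and -0.02 without either of the first words, and -0.08 with and -0.02 without GCAGTAC. For all tested genes with a 3′ UTR it was -0.06 with and 0.02 without the first words, and 0.18 with and -0.01 without GCAGTAC. Txnrd1, which fell, holds words of both kinds. Srxn1, which fell, and Txnl4b, which rose, hold GCAGTAC, and Txndc16, which rose, holds a word of the first kind. Prdx3, Gsto1, Mgst1, Hmox2, Txnip and Sod3 hold none of them.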

How the data were processed

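The authors' deposited table gives, per the file headers, a gene count, an RPKM value and a coding length per gene for each of 6 libraries. Bcl2fastq, HTSeq and TopHat2 2.0.6 are named, per the submitters' processing notes, with no role given. The builds named there, hg19 and GRCh37, are human, but 99.3% of 23056 rows with a matching symbol overlapped that gene in GRCm38.p6, so coordinates were read as GRCm38. The sources used here give no annotation and no strand setting. The deposited RPKM equals the count per kilobase of that length and scaled by 1 total per library.

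Counts were filtered with filterByExpr by group, which asks for 15 counts in total and a CPM cutoff in at least 3 libraries. The cutoff is the CPM of 10 counts in a library of median size. Counts were then scaled by TMM and tested over all 14151 genes with edgeR 4.0.16 (quasi-likelihood, robust, with limma 3.58.1 and R 4.3.3, Benjamini-Hochberg, 0.05). A floor of 6 counts (3 fragments) is 0.0545 to 0.0851 CPM and covers counting error only. Replicates differed beyond sampling noise (chi-square per degree of freedom 6.7 to 85.2). Members and lists were chosen with earlier results of these data known. Given in full are 15 members whatever their p, and those with an adjusted p under 0.05, an absolute log2 fold change of at least 0.58, a mean CPM of at least 2 and no overlap between groups. Up to 4 genes past the threshold with the largest change and a mean CPM of at least 1 are named per pathway list; other members describe their group. Alternatives were other scalings, filters, DESeq2 1.42.0, limma-voom, halved counts, a fit without Rn45s, a replicate block and each library left out. Selenocysteine codons were read from GENCODE M21 in place of proteins, and 50-base words from its transcripts.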

Additional observations from a re-analysis of the deposited data

How the results depend on the processing

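Of the 42 members past the threshold, between 37 and 42 remained past it under each alternative, and no called member reversed its direction. With 1 library left out the count of higher members was 18 to 20 and of lower members 19 to 23. For all genes these ranges were 3651 to 4512 and 3677 to 4681, and for the listed pathway genes 29 to 35 and 48 to 63. Among members still tested, the calls lost under a scaling, a filter or the replicate block were those of Gclm, Nqo1 and Sod1, each with an absolute log2 fold change of at most 0.17. Same-numbered libraries did not deviate together (correlations of -0.102, -0.024 and -0.239), so the numbers were not taken as pairs. With the replicate block 40 members passed, 20 higher and 20 lower, and 39 were among the 42. With control replicate 3 and Dia2 replicate 1 left out, which hold the most Rn45s in their groups, an alternative chosen after seeing the data, 43 members passed. Scaling moved the median log2 fold change of all genes to between -0.013 and 0.04. Depth limits statements on members under 1 CPM.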
